A study of Homo sapiens with 9 samples.

Results

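Motor neurons are described here by 9 genes that were chosen by name and not by a threshold on their values: ISL1, ISL2, MNX1, LHX3, LHX4, PHOX2A, CHAT, SLC18A3 and SLC5A7. All 9 were found among the 31589 genes of the deposited count tables. RNA was sequenced from whole human spinal cord organoids (SCOs) in 9 libraries, 3 for each of 3 conditions. By their labels, vehicle SCOs received FGF and VPA SCOs received valproic acid, an inhibitor of histone deacetylases. The last group received VPA + Rapamycin, an inhibitor of mTOR, and the labels give 96 h for each. In the study's text VPA was given together with FGF, and the vehicle was FGF alone. The study's text gives a shorter exposure for VPA and more than a single VPA dose, so no dose is given here. The labels give the WTC line of induced pluripotent stem cells with genotype WT for every library, whereas the methods of the study describe WTC clones edited at SOX10 to carry a reporter, and the labels do not tie a library to a clone. SCOs were pooled for RNA, so each value is an average over organoids and cell types. Fewer cells of a type and less RNA per cell cannot be told apart in such samples.

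Spinal motor neurons arise from ventral progenitors that make OLIG2 and NKX6-1, under the influence of Sonic hedgehog. As these cells leave the cycle they switch on a set of homeodomain factors. ISL1 and ISL2 act with LHX3 or LHX4 in a LIM complex, MNX1 (HB9) holds interneuron programs off, and PHOX2A marks visceral and branchial motor neurons. Mature motor neurons signal with acetylcholine, which CHAT makes, SLC18A3 (VAChT) loads into vesicles and SLC5A7 (CHT1) supplies with choline. Several of these genes are shared with other cells: LHX3 and LHX4 are also used in V2a interneurons, ISL1 in sensory neurons and PHOX2A in noradrenergic neurons.

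Promoter sequence is shown for 4 of the genes, since LHX3 and LHX4 moved together in these data, while SLC18A3 and CHAT share a locus and did not. Each line gives the 250 bases before the start site, 5' to 3' on the strand of the gene, from RefSeq on GRCh38.p14, where all 9 genes were matched. For LHX3 and CHAT, with 3 listed starts each, the start nearest to the gene's 5' end in the count tables was taken. Capitals mark TGACG or its reverse complement CGTCA, the core of the cyclic AMP response element, and TGANTCA, the AP-1 site.
LHX3 (chr9:136205129-136205378, minus strand): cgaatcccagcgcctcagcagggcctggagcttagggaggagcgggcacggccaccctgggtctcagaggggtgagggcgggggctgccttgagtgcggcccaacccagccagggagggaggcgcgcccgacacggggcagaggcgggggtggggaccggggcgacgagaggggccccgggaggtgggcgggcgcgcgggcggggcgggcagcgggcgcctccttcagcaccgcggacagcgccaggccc
LHX4 (chr1:180230014-180230263, plus strand): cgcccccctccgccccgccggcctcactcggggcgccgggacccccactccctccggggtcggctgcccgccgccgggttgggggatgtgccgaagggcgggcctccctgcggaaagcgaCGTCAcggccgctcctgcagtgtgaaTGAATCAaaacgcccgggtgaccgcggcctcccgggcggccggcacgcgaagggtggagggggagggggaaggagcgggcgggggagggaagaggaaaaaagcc
CHAT (chr10:49608845-49609094, plus strand): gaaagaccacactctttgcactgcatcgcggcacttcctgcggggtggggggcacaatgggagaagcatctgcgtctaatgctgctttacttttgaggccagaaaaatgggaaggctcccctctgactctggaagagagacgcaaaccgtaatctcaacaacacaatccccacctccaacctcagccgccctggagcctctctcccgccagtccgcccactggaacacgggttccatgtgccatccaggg
SLC18A3 (chr10:49610060-49610309, plus strand): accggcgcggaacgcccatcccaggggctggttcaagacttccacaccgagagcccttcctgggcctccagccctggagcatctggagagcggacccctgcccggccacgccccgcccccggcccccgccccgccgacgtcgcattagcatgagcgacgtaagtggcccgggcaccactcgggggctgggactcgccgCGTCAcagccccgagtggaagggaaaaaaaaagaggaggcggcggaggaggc

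The letters TGACG or CGTCA occurred in the windows of LHX4 and SLC18A3 and not in those of LHX3 and CHAT, and 21.2% of 35116 windows of the same length held them. TGANTCA occurred in the LHX4 window, and 6.57% of all windows held it. The GC box GGGCGG, searched on both strands like the other motifs, was found in all 4 windows and in 42.6% of all windows. The motifs were chosen after the values of the genes were seen, and a match is a description of the letters only. The 250 bases were 78.4% G and C for LHX3, 75.2% for LHX4, 70.8% for SLC18A3 and 57.6% for CHAT.

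Library depth ranged from 15290436 to 17417478 counted reads. Levels are given as normalized counts, which are read counts scaled between the 9 libraries with TMM, and as CPM per kb, which also divides by gene length. For the SCO label, a list of 11 caudal HOX genes summed to between 288 and 496 CPM in vehicle libraries, with 0 of the 11 genes at 0 in all of them, and a list of 6 rostral neural genes to between 1.01 and 1.67 CPM. Sums over 14 pan-neuronal genes ranged from 1946 to 3438 CPM in vehicle, from 1757 to 1898 in VPA and from 1872 to 2063 in VPA + Rapamycin, and the vehicle maximum was replicate 3.

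The order of the motor neuron genes per length was led by the vesicular transporter in every condition. In vehicle, SLC18A3 stood at 4.86 ± 1.63 CPM per kb (SD, n = 3), followed by LHX3 at 3.13 ± 0.53, PHOX2A at 2.42 ± 2.00 and LHX4 at 2.39 ± 0.59. These 4 neighbours overlapped from library to library. SLC5A7 at 1.25 ± 0.18 lay below LHX4 in every vehicle library pair and overlapped ISL1 at 1.22 ± 1.49, which overlapped CHAT at 0.88 ± 0.34. MNX1 at 0.42 ± 0.08 lay below CHAT without overlap, and ISL2 at 0.25 ± 0.13 overlapped MNX1. With VPA, SLC18A3 at 10.8 ± 1.23 CPM per kb stood clear of LHX3 at 1.55 ± 0.23, and ISL1 was last at 0.042 ± 0.043. MNX1 had moved to the fourth place at 0.99 ± 0.25 and lay above CHAT at 0.66 ± 0.03 without overlap. With VPA + Rapamycin, SLC18A3 at 10.9 ± 2.80 again did not overlap LHX3 at 2.61 ± 0.78, and every other pair of neighbours overlapped.

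**Figure D1:**
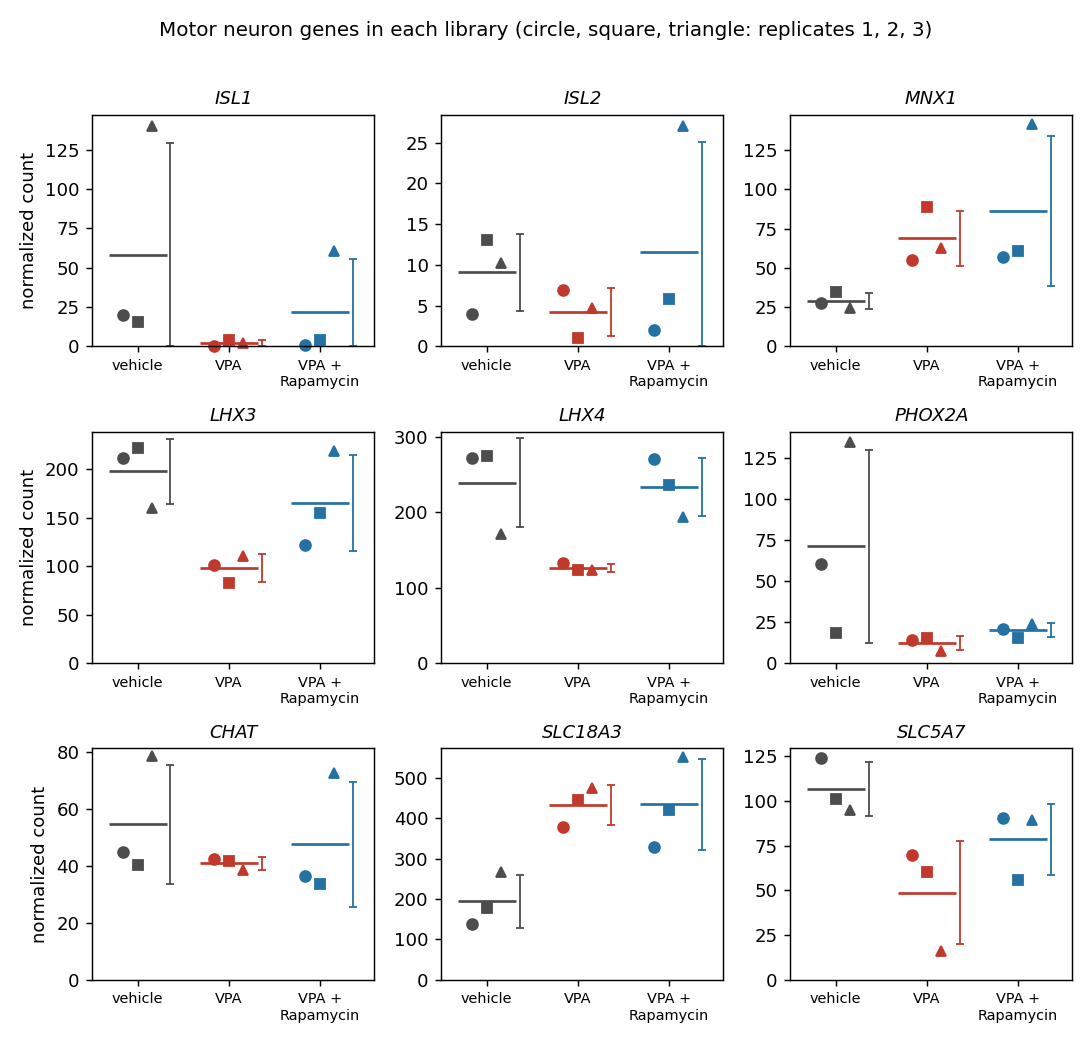
Normalized counts (y axis, linear, a separate scale for each gene) of the 9 motor neuron genes in vehicle, VPA and VPA + Rapamycin. Points are libraries, horizontal lines are group means and bars are the SD, cut at 0 where the SD exceeds the mean. SLC18A3 and MNX1 lie higher in every VPA library than in any vehicle library, LHX3 and LHX4 lie lower, and replicate 3 carries the vehicle and VPA + Rapamycin means of ISL1.

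VPA against vehicle asks which motor neuron genes the drug moved. The 9 genes did not move as a block: SLC18A3 and MNX1 rose, while ISL1, PHOX2A, LHX3 and LHX4 fell. Of 8 genes with enough reads to be tested, 2 were higher and 4 lower at an adjusted p of at most 0.05, beside 16.4% of 17360 genes called higher and 15.7% called lower. The median log2 fold change of the 8 was -0.98, beside -0.00298 for all genes tested. The libraries of the 2 groups did not overlap for 7 of the 9 genes, as for 47.5% of genes tested. Exact permutation tests of 3 libraries against 3 cannot give a two-sided p below 0.1, and these 7 genes reached it. All adjusted p-values are from edgeR's quasi-likelihood test over all genes. Each weighs a fitted difference against the spread between these libraries, which is estimated partly from other genes.

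VPA + Rapamycin against VPA asks which of these changes moved again when mTOR was inhibited. LHX3 and LHX4 rose and 0 of the 7 genes tested fell, beside 3.01% of 17317 genes called higher and 3.73% called lower. The median log2 fold change of the 7 was 0.70, beside 0.0039 for all genes. The groups did not overlap for 3 of 9 genes (LHX3, LHX4 and PHOX2A), as for 25.5% of genes tested. For PHOX2A the margin was very small: 15.386 normalized counts in VPA + Rapamycin replicate 2 against 15.285 in VPA replicate 2. In a fit over all 9 libraries 0 of the 7 passed, with 44 genes higher and 69 lower in all.

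VPA + Rapamycin against vehicle asks what remained different under both drugs. SLC18A3 and MNX1 were higher and PHOX2A was lower, out of 8 genes tested, beside 9.81% of 17383 genes called higher and 9.22% called lower. The median log2 fold change of the 8 was -0.24, beside -0.00087 for all genes. The groups did not overlap for SLC18A3, MNX1 and SLC5A7, as for 38.5% of genes tested. Without VPA + Rapamycin replicate 3, 1 gene passed, and it was ISL1. The 3 comparisons share their libraries in pairs, so they are not independent of each other.

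**Figure D2:**
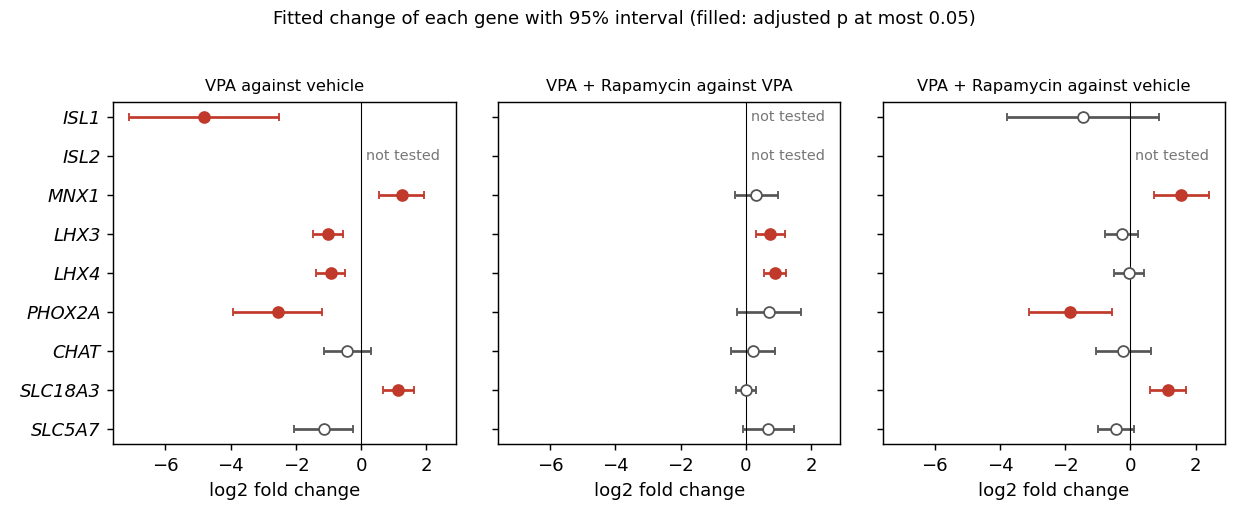
Log2 fold change (x axis) of each motor neuron gene in the 3 comparisons, with 95% intervals from edgeR's quasi-likelihood fit. Filled red points have an adjusted p of at most 0.05: 6 genes in VPA against vehicle, 2 in VPA + Rapamycin against VPA and 3 in VPA + Rapamycin against vehicle.

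ISL1 (ENSG00000016082, chr5:51383391-51394738, plus strand), the LIM homeodomain factor that new motor neurons switch on, was the most reduced by VPA of the 9 genes. Vehicle libraries held 20, 14 and 137 counts, VPA libraries 0, 4 and 2, and VPA + Rapamycin libraries 1, 4 and 58. Every VPA library lay below every vehicle library, but 80.1% of the vehicle counts and 92.1% of the VPA + Rapamycin counts came from replicate 3 of each group. The vehicle mean was 58.3 ± 70.9 normalized counts and the VPA mean 1.98 ± 2.04 (SD, n = 3 for both). The fitted log2 fold change was -4.82 (SE 1.05, adjusted p = 0.0055). It was -3.07 without vehicle replicate 3 (adjusted p = 0.0079). VPA replicates 1 and 3 held 3 counts or fewer, so the size of the fall is loosely fixed. From summed counts, 171 against 6, vehicle exceeded VPA 29.9-fold with a 95% exact interval of 13.4 to 82.5 that covers counting error only, and 8.93-fold (3.71 to 26.0) without vehicle replicate 3.

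With Rapamycin the mean of ISL1 was 21.7 ± 33.5 normalized counts. ISL1 had too few reads for the test against VPA. When the filter on low counts was left out, the log2 fold change was 3.37 (adjusted p = 0.00022). The groups overlapped, however, and 2 of the 3 VPA + Rapamycin libraries held 1 and 4 counts. In the fit over all 9 libraries the log2 fold change was also 3.37, but it did not pass (adjusted p = 0.327). DESeq2 gave 3.45 (unadjusted p = 0.067) and no adjusted p. Against vehicle the log2 fold change of ISL1 was -1.45 (95% interval -3.79 to 0.89, adjusted p = 0.371). That value was 0.29 without vehicle replicate 3 (adjusted p = 0.860) and -4.52 without VPA + Rapamycin replicate 3 (adjusted p = 0.0414). With the replicate number as a block it was -1.85 (adjusted p = 0.0090). Its sign and its call thus changed with single libraries, and its call also with the block. ISL1 passed against vehicle in 3 of 12 alternatives, which also include the fit without replicate 3 of both groups.

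Other cell type markers moved with ISL1 in those libraries. In vehicle replicate 3, the sensory factor TLX3 held 58 counts, against 2 and 3 in vehicle replicates 1 and 2. The sensory factor POU4F1 held 121 counts there, against 33 and 30. The whole list of 10 sensory genes ranged from 126 to 166 CPM over vehicle libraries, from 115 to 138 in VPA and from 140 to 161 in VPA + Rapamycin. Of its members TLX3 was at or near 0 in VPA, with 1, 0 and 0 counts, whereas POU4F1 held 91, 84 and 85 counts in VPA and stood at a log2 fold change of 0.42 against vehicle (adjusted p = 0.509). Some mesenchymal genes were also high in vehicle replicate 3. LUM held 578 counts there against 82 and 67, DCN 97 against 0 and 0, and TWIST1 63 against 0 and 1. PRRX1 held 53 against 0 and 0, COL3A1 85 against 8 and 11, and POSTN 85 against 2 and 20. COL1A2 was also highest there, by a smaller margin, at 1671 counts against 1457 and 436. Others were not: COL1A1 was lowest there, at 1163 counts against 3376 and 1553. PDGFRA held 66 against 66 and 27, and PDGFRB 305 against 363 and 184. The list of 10 mesenchyme genes summed to 258 CPM in that library, within the vehicle range of 151 to 317. FOXA2, a floor plate factor, held 52 counts in that library against 0 and 7. In VPA + Rapamycin replicate 3, the progenitor factor OLIG2 held 822 counts, against 14 and 119 in replicates 1 and 2. FOXA2 held 85 counts there against 0 and 5, and NKX2-2 held 29 against 0 and 0. These genes were named after their values were seen, and their part in the ISL1 values was not tested.

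ISL2 (ENSG00000159556, chr15:76336724-76342476, plus strand), the paralogue of ISL1 in postmitotic motor neurons, was close to the limit of detection. Its counts were 4, 12 and 10 in vehicle, 7, 1 and 5 in VPA, and 2, 6 and 26 in VPA + Rapamycin. All 3 groups overlapped, and ISL2 passed the low count filter in 0 of the 3 comparisons. A difference was not detectable at this depth. Of its 2221 exon bases 389 are shared with AC027243.1 on the other strand, which had a mean of 0.44 counts. The highest value was again VPA + Rapamycin replicate 3, which held 76.5% of the counts of its group.

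LHX3 (ENSG00000107187, chr9:136196250-136205128, minus strand), the LIM factor that pairs with ISL1 in medial column motor neurons, held 217, 204 and 156 counts in vehicle. VPA libraries held 102, 81 and 118, and those with VPA + Rapamycin 124, 161 and 210. Every VPA library lay below every library of the other 2 groups. The means were 198 ± 33.6, 98.0 ± 14.3 and 165 ± 49.2 normalized counts (SD, n = 3 each), so VPA left 49.5% of the vehicle mean and VPA + Rapamycin 83.5%. LHX3 fell by 1.02 on the log2 scale with VPA (SE 0.21, adjusted p = 0.0036) and passed under all 12 alternatives run.

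The rise of LHX3 with Rapamycin was 0.75 on the log2 scale (SE 0.21, adjusted p = 0.0424). It passed in 5 of 12 alternatives, with adjusted p-values from 0.0054 to 0.251. It failed without any 1 of the VPA libraries and without VPA + Rapamycin replicate 2 or 3. Against vehicle the difference was -0.27 (95% interval -0.78 to 0.24, adjusted p = 0.451).

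LHX4 (ENSG00000121454, chr1:180230286-180278982, plus strand), the close relative of LHX3 with overlapping roles in motor neurons, held 279, 252 and 168 counts in vehicle. It held 134, 121 and 131 in VPA and 275, 245 and 186 in VPA + Rapamycin. VPA libraries were tight and lay below all others. Mean normalized counts were 239 ± 58.7, 126 ± 5.25 and 233 ± 38.3 (SD, n = 3 each). LHX4 fell by 0.93 on the log2 scale with VPA (SE 0.21, adjusted p = 0.0058) and was 0.89 higher with Rapamycin than with VPA alone (SE 0.16, adjusted p = 0.0030). The second value failed in the fit over all 9 libraries (adjusted p = 0.0630) and passed in the other 11 alternatives. Between VPA + Rapamycin and vehicle the difference was -0.05 (95% interval -0.51 to 0.41, adjusted p = 0.903), and its sign turned without vehicle replicate 1, vehicle replicate 2 or VPA + Rapamycin replicate 3.

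LHX4 shares 1866 of its 6061 exon bases with ACBD6 on the other strand, and the use of the strand in counting is not given in the sources used here. ACBD6 had a mean of 758 counts against 199 for LHX4, so part of the reads of LHX4 is uncertain. ACBD6 itself was 0.34 higher on the log2 scale with VPA (adjusted p = 0.0414), opposite to LHX4. With Rapamycin against VPA it stood at -0.09 (adjusted p = 0.599).

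MNX1 (ENSG00000130675, chr7:156994051-157010651, minus strand), which encodes the repressor HB9 and is a defining factor of somatic motor neurons, went the other way. It held 28, 32 and 24 counts in vehicle, 56, 87 and 67 in VPA, and 58, 63 and 136 in VPA + Rapamycin. Every library of the 2 treated groups lay above every vehicle library. Group means were 28.9 ± 5.31, 68.9 ± 17.5 and 86.4 ± 47.8 normalized counts (SD, n = 3 each). MNX1 was higher with VPA by 1.24 on the log2 scale (SE 0.31, adjusted p = 0.0114), a call that was lost without VPA replicate 2 (adjusted p = 0.0701).

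Adding Rapamycin left MNX1 at a log2 fold change of 0.32 against VPA (95% interval -0.33 to 0.98, adjusted p = 0.597), and the sign turned without VPA + Rapamycin replicate 3. Against vehicle MNX1 was higher by 1.57 (SE 0.39, adjusted p = 0.0190). Without VPA + Rapamycin replicate 3, the library with the high OLIG2 and ISL1 counts, that value was 1.02 (adjusted p = 0.0962). The overlapping antisense gene MNX1-AS2 shares 0 exon bases with MNX1 and had a mean of 3 counts.

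PHOX2A (ENSG00000165462, chr11:72239077-72245664, minus strand), a factor of visceral and branchial motor neurons, held 62, 17 and 132 counts in vehicle. It held 14, 15 and 8 in VPA and 21, 16 and 23 in VPA + Rapamycin. Vehicle spread widely, and its lowest library at 18.5 normalized counts lay just above the highest VPA library at 15.3. Mean normalized counts were 71.3 ± 59.0, 12.2 ± 4.13 and 20.0 ± 4.31 (SD, n = 3 each). PHOX2A fell by 2.56 on the log2 scale with VPA (SE 0.62, adjusted p = 0.0096). The call was lost without VPA replicate 3 (log2 fold change -2.30, adjusted p = 0.0527), and without replicate 3 of both groups the value was -1.45 (adjusted p = 0.0713).

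With Rapamycin PHOX2A differed from VPA by 0.71 (95% interval -0.27 to 1.70, adjusted p = 0.409). Its log2 fold change against vehicle was -1.85 (SE 0.58, adjusted p = 0.0467), and that call was lost without any 1 of the VPA + Rapamycin libraries or without vehicle replicate 3 (log2 fold change -0.998, adjusted p = 0.169). PHOX2A shares 29 of its 1784 exon bases with INPPL1 on the other strand, a gene with a mean of 2367 counts. INPPL1 also fell with VPA, by 0.66 on the log2 scale (adjusted p = 0.0013), and its part in the PHOX2A counts was not tested. A list of sympathetic neuron genes summed to at most 9.10 CPM in any library.

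The 3 cholinergic genes separated. SLC18A3 (ENSG00000187714, chr10:49610301-49612720, plus strand), the vesicular acetylcholine transporter, held 142, 164 and 260 counts in vehicle. It held 383, 436 and 505 in VPA and 335, 438 and 530 in VPA + Rapamycin. Every treated library lay above every vehicle library. On average SLC18A3 stood at 194 ± 65.0, 432 ± 49.2 and 434 ± 112 normalized counts (SD, n = 3 each). SLC18A3 was 2.21-fold higher with VPA (log2 1.14, SE 0.22, adjusted p = 0.0027) and passed in all 12 alternatives.

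Between VPA + Rapamycin and VPA the difference of SLC18A3 was 0.01 on the log2 scale (95% interval -0.30 to 0.32, adjusted p = 0.986), and its sign turned under several alternatives. Against vehicle SLC18A3 with VPA + Rapamycin was 2.22-fold higher (log2 1.15, SE 0.25, adjusted p = 0.0114). Without VPA + Rapamycin replicate 3 it was higher by 0.94 (adjusted p = 0.0511).

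CHAT (ENSG00000070748, chr10:49609095-49665104, plus strand), the enzyme that makes acetylcholine, held 46, 37 and 77 counts in vehicle, 43, 41 and 41 in VPA, and 37, 35 and 70 in VPA + Rapamycin. The groups overlapped in all 3 comparisons. The highest libraries were replicate 3 of vehicle and of VPA + Rapamycin, the same libraries that led ISL1. The log2 fold change of CHAT was -0.43 with VPA (95% interval -1.15 to 0.29, adjusted p = 0.343). It was 0.22 for VPA + Rapamycin against VPA (-0.47 to 0.90, adjusted p = 0.755) and -0.21 against vehicle (-1.06 to 0.63, adjusted p = 0.736), and the sign of the last 2 turned without VPA + Rapamycin replicate 3 or vehicle replicate 3, respectively. These intervals leave room for a change of either sign.

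SLC18A3 and CHAT form the cholinergic locus, in which the single exon of the transporter lies inside the first intron of the annotated CHAT transcript that starts furthest upstream. The genes share 0 exon bases in GENCODE release 29. The ratio of SLC18A3 to CHAT counts was 3.09, 4.43 and 3.38 in vehicle. It was 8.91, 10.6 and 12.3 in VPA, and 9.05, 12.5 and 7.57 in VPA + Rapamycin. Every treated library lay above every vehicle library (exact permutation test, two-sided p = 0.1 for VPA and for VPA + Rapamycin, the smallest that 3 against 3 allows). Between VPA and VPA + Rapamycin the ratios overlapped (exact permutation p = 0.8). Of 12 annotated CHAT transcripts, 1 starts upstream of SLC18A3 and spans its exon, and the other 11 start 4013 bases or more from the start of CHAT, beyond that exon. Reads of unspliced RNA from that single transcript cannot be told apart from reads of SLC18A3.

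**Figure D3:**
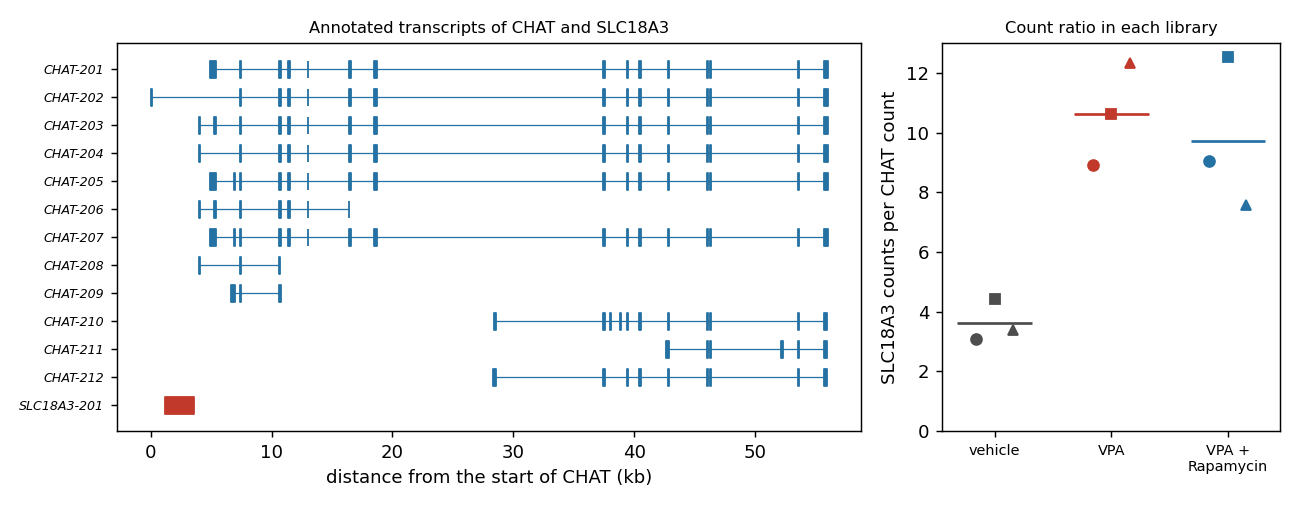
Left, exons (boxes) of annotated CHAT transcripts in blue and of SLC18A3 in red, by distance in kb from the start of CHAT. Right, SLC18A3 counts per CHAT count in each library (points) with group means (lines): vehicle libraries lie between 3.09 and 4.43, and all treated libraries at 7.57 or above.

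SLC5A7 (ENSG00000115665, chr2:107986523-108013994, plus strand), the high-affinity choline transporter, held 127, 93 and 93 counts in vehicle, 71, 59 and 17 in VPA, and 92, 58 and 86 in VPA + Rapamycin. Every vehicle library lay above every library of the 2 treated groups, by a small margin for VPA + Rapamycin. Mean normalized counts were 107 ± 15.3, 48.7 ± 28.8 and 78.6 ± 19.7 (SD, n = 3 each). The log2 fold change with VPA was -1.15 (95% interval -2.05 to -0.25, adjusted p = 0.0522), just outside the threshold. SLC5A7 passed in 7 of 12 alternatives, with adjusted p-values from 0.0022 to 0.103, and with the replicate block the value was -1.30 (adjusted p = 0.0106). The difference was 0.70 for VPA + Rapamycin against VPA (-0.08 to 1.47, adjusted p = 0.287) and -0.45 against vehicle (-1.004 to 0.10, adjusted p = 0.231).

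The counts of the other gene lists are to be read against the shares of all genes called: 16.4% higher and 15.7% lower with VPA, 3.01% and 3.73% for VPA + Rapamycin against VPA, and 9.81% and 9.22% for VPA + Rapamycin against vehicle. Of 6 tested in a list of 7 motor neuron progenitor factors, 4 were lower with VPA (NKX6-1, NEUROG2, OLIG1 and NKX6-2). The 4 were higher with VPA + Rapamycin than with VPA, and 0 of 6 were called between VPA + Rapamycin and vehicle. For 2 of the 4, VPA + Rapamycin overlapped VPA and its highest library was replicate 3: OLIG1 held 32, 111 and 683 counts with VPA + Rapamycin and 0, 89 and 10 with VPA, and NKX6-2 held 52, 83 and 221 and 54, 18 and 47. NKX6-1, which sets the ventral domains, fell by 1.19 on the log2 scale (adjusted p = 0.0018) and was higher by 1.11 with Rapamycin (adjusted p = 8.3e-05). NEUROG2, which drives cell cycle exit, fell by 0.75 (adjusted p = 0.0230) and was higher by 0.86 (adjusted p = 0.0193). OLIG2, the defining factor of the motor neuron domain, held 65, 209 and 456 counts in vehicle, 0, 134 and 20 in VPA, and 14, 119 and 822 in VPA + Rapamycin. It passed in 0 of the 3 comparisons (adjusted p = 0.0805 for VPA against vehicle and 0.0920 for VPA + Rapamycin against VPA). PAX6 stood at -0.03 with VPA (adjusted p = 0.851) and at -0.08 for VPA + Rapamycin against VPA (adjusted p = 0.532).

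V2 interneurons share LHX3 and LHX4 with motor neurons, and their genes moved in the same direction. All 7 genes of a V2 list fell with VPA, among them SOX14, TAL1, GATA2 and FOXN4. SOX14, a V2 interneuron factor, held 292, 233 and 197 counts in vehicle, 31, 39 and 35 in VPA, and 113, 86 and 116 in VPA + Rapamycin. It fell by 2.85 with VPA (adjusted p = 1.6e-05) and was higher by 1.61 with Rapamycin than with VPA (adjusted p = 0.00079). With Rapamycin 5 of the 7 rose against VPA, and all 7 were called lower than in vehicle (median log2 fold change -0.997). LHX3 and LHX4 stood at 83.5% and 97.3% of the vehicle mean with VPA + Rapamycin, SOX14 at 42.5% and TAL1 at 25.2%. The summed level of the 7 genes was 172 to 259 CPM in vehicle, 59.9 to 74.2 in VPA and 105 to 119 in VPA + Rapamycin. None of the defining V2 genes was at 0 in all libraries of a group, and their part in the LHX3 and LHX4 values was not tested.

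**Figure D4:**
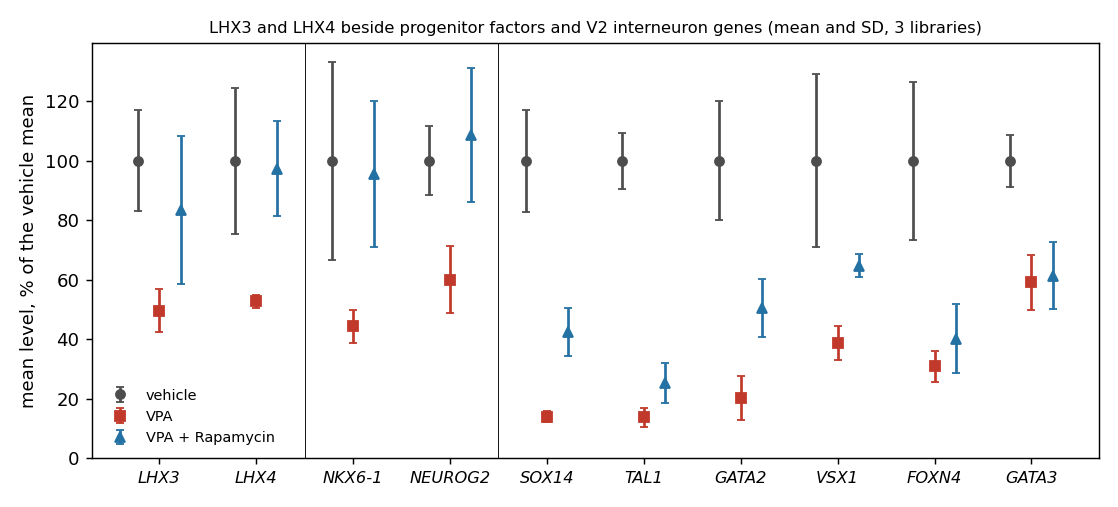
Mean level as a percentage of the vehicle mean (y axis) for LHX3 and LHX4, for the 2 progenitor factors with the smallest adjusted p in VPA against vehicle, and for 6 V2 interneuron genes. Points are means and bars the SD of 3 libraries. LHX3 and LHX4 lie at 49.5% and 52.7% with VPA, below GATA3 at 59.1%. The other V2 genes shown lie lower, from TAL1 at 13.7% to VSX1 at 38.6%.

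Factors that divide motor neurons into columns and pools fell more often than they rose with VPA. Of 9 tested, 6 were lower and 1 was higher. ONECUT1 and ONECUT2, early motor neuron factors, fell by 1.08 and 0.87 on the log2 scale (adjusted p = 0.00042 and 0.00027), and LHX1, of the lateral column, fell by 1.38 (adjusted p = 0.0018). ALDH1A2, the retinoic acid enzyme of limb-level motor neurons, was the gene that rose, by 2.14 (adjusted p = 0.0122) from 10, 7 and 2 counts in vehicle to 25, 40 and 24 in VPA. It is named because it was the single exception. FOXP1, the factor of limb columns, stood at 0.37 (adjusted p = 0.0531). With Rapamycin 3 of 8 were higher than with VPA (ONECUT2, ETV4 and ETV1), and 2 of 9 were lower than in vehicle (LHX1 and ONECUT1).

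The cofactors through which LIM factors such as LHX3 and ISL1 act were all tested. LDB1, the bridge of the LIM complex, fell by 0.59 with VPA (adjusted p = 0.0015), and LMO3 and SSBP2 fell by 0.85 and 0.33 (adjusted p = 0.0020 and 0.0232). LDB2 was higher by 0.49 (adjusted p = 0.0327). The other 3 of the 7 did not pass. Against VPA, SSBP3, LDB1 and LMO3 were higher with Rapamycin, and against vehicle LMO3, SSBP2 and LDB1 were lower.

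Among 12 genes that motor neurons use at the axon and the muscle, 3 were higher and 2 lower with VPA, beside 16.4% and 15.7% of all genes. NEFH, the heavy neurofilament, held 100, 90 and 85 counts in vehicle and 243, 285 and 337 in VPA, and was higher by 1.57 on the log2 scale (adjusted p = 0.00014). RET, the GDNF receptor, was higher by 1.00 (adjusted p = 0.0037). NRG1, which signals to Schwann cells and muscle spindles, fell by 0.84 (adjusted p = 0.0048), and the chemokine receptor CXCR4 by 0.39 (adjusted p = 0.0247). With VPA + Rapamycin NEFH and RET were still higher than in vehicle, by 1.46 and 0.81 (adjusted p = 0.0020 and 0.0191), like SLC18A3 and MNX1. Against VPA 1 of the 12 was higher, the peptide gene CALCB, by 0.69 (adjusted p = 0.0371).

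Of 10 tested genes for choline supply and acetylcholine breakdown, 3 were higher and 2 lower with VPA, beside the same 16.4% and 15.7%. ACHE, which breaks acetylcholine down, held 284, 250 and 217 counts in vehicle and 423, 365 and 455 in VPA, and was higher by 0.65 (adjusted p = 0.0065). The choline transporter-like genes SLC44A3 and SLC44A1 were higher by 1.27 and 0.47 (adjusted p = 0.00047 and 0.0212), whereas SLC44A5 fell by 0.67 (adjusted p = 0.0139). CHKB, a choline kinase, fell by 1.23 (adjusted p = 0.0299), and is named as the other gene that fell. Against vehicle SLC44A3, ACHE and SLC44A1 were also higher with VPA + Rapamycin, by 1.26, 0.98 and 0.45 (adjusted p = 0.0017, 0.0017 and 0.0444). SLC44A5 and COLQ, the collagen that anchors ACHE, were higher with Rapamycin than with VPA.

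Markers of other cells are given by their counts. Of 14 pan-neuronal genes, 7 fell with VPA and 0 rose, with a median log2 fold change of -0.52 beside -0.98 for the motor neuron genes, and 4 were lower than in vehicle with VPA + Rapamycin. NHLH1 and ELAVL4, genes of new neurons, fell by 1.39 and 1.20 (adjusted p = 7.5e-05 and 0.00051). Other ventral and V0 interneuron factors fell in 3 of 4 tested (EVX1, EN1 and EVX2), and caudal HOX genes in 6 of 11. Sensory neuron genes were higher in 1 (RUNX3) and lower in 2 (NEUROG1 and PRDM12) of 7 tested, neural progenitor genes higher in 1 and lower in 1 of 8, and neural crest genes higher in 2 and lower in 3 of 6. Mesenchyme genes were higher in 2 of 9 (COL1A2 and COL1A1) and lower in 0, with a median log2 fold change of 0.02. COL1A2 averaged 5277 normalized counts in VPA and COL1A1 4463, and LUM came next at 333. The summed levels of the list, 151 to 317 CPM in vehicle and 578 to 736 CPM in VPA, followed mostly those 2 genes. With VPA + Rapamycin 6 of the 9 were lower than with VPA (median log2 fold change -1.32), at 257 to 383 CPM, in the comparison in which LHX3 and LHX4 rose. Of the rostral neural list 1 of 2 tested was higher (LHX2), of the cardiac and pharyngeal list 1 of 1 (TBX1), and of the endoderm and notochord list 0 of 1. The part of these shifts in cell types in the motor neuron values was not tested.

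For the 7 motor neuron genes tested in all 3 comparisons, which leaves out ISL1 and ISL2, the genes whose log2 levels followed them most closely over the 9 libraries were taken from 17228 genes by Pearson's r. These values describe the libraries, which share conditions and depth. For SLC18A3 they were EPB41L3 (r = 0.985), EGFR (0.981) and OTUD7A (0.980). MNX1 was closest to TTLL11 (0.954), GLI1 (0.936) and NABP1 (0.928). LHX3 was closest to CARD9 (0.956), TBX19 (0.955) and UNC5CL (0.955), and LHX4 to JRK (0.957), OGFOD2 (0.953) and IDUA (0.952). PHOX2A was closest to IL17RD (0.964), STON1 (0.959) and SPINK5 (0.952), and CHAT to SLC30A7 (0.933), ALG10 (0.926) and ZNF547 (0.914). SLC5A7 was closest to C11orf87 (0.9746), TMEM131L (0.951) and the pseudogene ELOCP19 (0.9501). Within the motor neuron genes the closest pairs were MNX1 with SLC18A3 (0.845), ISL1 with CHAT (0.829), ISL1 with PHOX2A (0.766) and LHX3 with LHX4 (0.733), and LHX4 with SLC18A3 (-0.615) and MNX1 with PHOX2A (-0.612) were the most opposed.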

How the data were processed

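Poly-A RNA of whole SCOs was primed with random hexamers and made into libraries with the NEBNext Ultra kit. According to the submitters' processing notes, reads were aligned with HISAT2 2.0.5 and counted with featureCounts 1.5.0-p3. The deposited counts are raw reads assigned to each gene, in 3 tables, 1 for each pair of conditions, and the smallest total of a gene in a table is 2. Strand use in counting is not given in the sources used here. Of the gene positions 99.8% equal GENCODE release 29 on GRCh38. A further 36 columns of FPKM and size-factor normalized counts, and the authors' columns of fold changes and p-values, were not used.

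Each pair of conditions was fitted in its own table with edgeR 4.0.16 in R 4.3.3: TMM, filterByExpr defaults, quasi-likelihood F test, Benjamini-Hochberg adjustment, threshold 0.05, no block. Alternatives were RLE size factors, DESeq2 1.42.0, no filter, a replicate block, all 9 libraries in a single fit, leaving out each library and, added after seeing the data, leaving out both replicate 3 libraries of a pair. The fits were tested on simulated data. The motor neuron genes and other lists were chosen with earlier results of these data known. Beyond the motor neuron genes, up to 4 genes called in each list with the smallest adjusted p were to be named, and the 3 genes most like each. Genes named outside that rule are OLIG2, PAX6, FOXP1, CHKB, ALDH1A2, COLQ, TLX3, POU4F1, FOXA2, NKX2-2, DCN, PRRX1, COL3A1, POSTN and PDGFRB. NOTO, TBX5 and TNNT2 were not analysed here, and a few genes of the lists are not reported here.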

Additional observations from a re-analysis of the deposited data

How the results depend on the processing

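ISL1, ISL2, MNX1, PHOX2A, CHAT and SLC5A7 held under 150 counts in every library. With 3 libraries a group, changes of those genes smaller than their intervals could not be seen. SLC18A3, LHX3, LHX4 and ISL1 passed in VPA against vehicle under all 12 alternatives run, and CHAT under 0 of them in any comparison. The number of motor neuron genes called in VPA against vehicle was 6, and 5 to 7 when a library was left out. In VPA + Rapamycin against VPA it was 2, then 1 to 2 when a library was left out, 1 without both replicate 3 libraries and 0 in the fit over all 9 libraries. In that fit the number of genes called over the whole table fell from 522 higher and 646 lower to 44 and 69. In VPA + Rapamycin against vehicle it was 3, and 1 to 3 when a library was left out. The cause of these shifts was not tested.

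The sample descriptions give the libraries of a replicate number the same code in every condition, and the study describes 3 clones, but no source used here ties a code to a clone. Deviations of same-numbered libraries from their group means correlated between -0.061 and 0.17 over 17229 genes. The highest value was that of replicate 3 in vehicle and VPA + Rapamycin. A correlation over all genes cannot decide whether the libraries were paired. With the replicate block, 7, 2 and 4 motor neuron genes were called in the 3 comparisons in the order above. The genes called higher over the whole table went from 2840 to 2598, from 522 to 539 and from 1705 to 2104, respectively. SLC18A3 in VPA + Rapamycin against VPA was -0.011 on the log2 scale with the block.

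Signs turned for values that did not pass. In VPA + Rapamycin against VPA, SLC18A3 was -0.083 without VPA replicate 1 and -0.20 without VPA + Rapamycin replicate 3, where MNX1 was -0.23 and CHAT -0.22. Without both replicate 3 libraries SLC18A3 was -0.13, MNX1 -0.29 and CHAT -0.26. Against vehicle, LHX4 was 0.055, 0.058 and 0.075 without vehicle replicate 1, vehicle replicate 2 and VPA + Rapamycin replicate 3, and without vehicle replicate 3 ISL1 was 0.29 and CHAT 0.15. Over the libraries left out, the highest value against VPA was 0.55 for MNX1 and 0.41 for CHAT, and the lowest against vehicle was -4.52 for ISL1 and -0.65 for CHAT. Untested in the chosen fit, ISL2 had an adjusted p of 0.381 to 0.825 without the filter on low counts.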
